A study of Mus musculus with 24 samples.

Results

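The vacuolar proton pump of microglia was followed through the transcripts of 10 of its genes. They were chosen by name, with earlier results of these data known. Atp6v1a, Atp6v1b2, Atp6v1e1, Atp6v1g1 and Atp6v1h encode 5 subunits of the V1 sector, Atp6v0c, Atp6v0d1 and Atp6v0e encode 3 subunits of the V0 sector, and Atp6ap1 and Atp6ap2 encode 2 accessory subunits. They are 10 of the 15878 genes with values in the deposited table and 10 of the 10219 that passed the filter on low counts. All 10 had a count in each of the 24 libraries.

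Microglia, the resident macrophages of the brain, were sorted by fluorescence from wild-type mice on day 28, and RNA was sequenced after Smart-seq2 amplification in 4 groups of 6 libraries. Sham mice had the control operation and received PBS, and BCAS mice had the BCAS operation and PBS. In the other groups, BCAS mice received exosomes called ND-Exos or WD-Exos, at 100 µg per dose, injected into a tail vein at intervals of 3 days until day 28. BCAS commonly stands for bilateral carotid artery stenosis, which lowers blood flow to the forebrain. The title of the series names exosomes of foam cells, ischemic white matter injury and metabolic defects passed to microglia. The labels do not spell out ND and WD, nor give the age of the mice or how many mice stand behind a library. Nothing in the labels says that separate mice gave the 6 libraries of a group, and a p-value here therefore reflects only how these libraries spread, which may be partly technical.

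The pump is a rotary machine in the membranes of lysosomes, endosomes and phagosomes. Its V1 sector, in the cytosol, splits ATP and turns a central shaft, and its V0 sector, in the membrane, uses that rotation to carry protons into the compartment. The acid it makes is what lysosomal hydrolases need, and in microglia it serves the digestion of engulfed myelin, dying cells and lipoproteins. V1 can detach from V0 and rejoin it, so transcript levels do not give the activity of the pump. TFEB and the related factors TFE3 and MITF are known to bind a palindromic element, named CLEAR, near the start of many lysosomal and pump genes.

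That element was looked for in the 250 bases before the start sites of the RefSeq promoter table (GRCm38.p6), where 7 of the 10 genes matched, with 9 windows. Because the letters are palindromes, a match counts on both strands. The core of the element, TCACGTGA, was in 1 of the 7, Atp6v1a, and in 0.907% of all 27025 genes in that table. The shorter E-box CACGTG, which lies inside that core, was in Atp6v1a only among the 7 genes and in 6.86% of all genes. The stretch around it is shown because, of the 9 windows of these genes, no other held these letters. It lies at chr16:44139359-44139416, minus strand, and is written 5′ to 3′ with the core in capitals, 132 to 125 bases before the start site.
Atp6v1a: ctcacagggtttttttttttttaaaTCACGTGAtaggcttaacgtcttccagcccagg
The match describes these letters only, and no match says only that they are not in the window.

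Library totals were 24277721 to 28892422 estimated counts, and levels are given in CPM on the TMM scale. On it, counts are divided by the library's total over the tested genes times its TMM factor. The summed CPM of 10 microglial markers was 39969 to 71170 over the libraries. Markers of neutrophils (4 of 8 with values) and of T and NK cells (1 of 4) summed to at most 0.832 and 0.148 CPM. Oligodendrocyte markers (8 of 8) reached 7594 CPM in Sham replicate 4, 4293 in ND-Exos replicate 3 and 5225 in WD-Exos replicate 6, against group medians of 230 to 329. Endothelial markers (5 of 5) had mean sums of 202, 74.5, 42.7 and 108 CPM in the order Sham, BCAS, ND-Exos, WD-Exos, with up to 694 in 1 Sham library. Neuronal markers (7 of 7) had 63.8, 4.90, 7.42 and 4.94 CPM in that order, mural cell markers (4 of 5) 81.2 in Sham and at most 1.88 elsewhere, and astrocyte markers (8 of 8) 136, 167, 245 and 193. Markers of border macrophages (9 of 9), which digest like microglia and also carry the pump, summed to 282 to 1480 CPM in Sham, 73.8 to 581 in BCAS, 234 to 875 after ND-Exos and 137 to 321 after WD-Exos, and the part of these other cells in the results was not tested. Summed immediate early and heat shock genes (12 of 12 with values), which respond within minutes to cell handling, ranged from 593 to 2637 CPM in Sham, 527 to 17474 in BCAS, 2952 to 5477 after ND-Exos and 1437 to 21974 after WD-Exos. BCAS replicate 2 and WD-Exos replicate 2 held the highest values. In bulk libraries like these, fewer cells of a type and less RNA per cell cannot be told apart.

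Levels per length of transcript were compared first, since CPM alone favours long transcripts. Atp6v0c, the proteolipid that forms the proton-carrying ring of V0, led with 669 ± 135 CPM per kb (SD, n = 24). Atp6v0e, a small V0 protein of the membrane, stood at 289 ± 62.0 CPM per kb. Atp6ap1, an accessory protein needed to assemble V0, stood at 277 ± 61.3. The ring transcript was the higher of the leading pair in 24 of 24 libraries, whereas Atp6v0e exceeded Atp6ap1 in 14 of 24 and the order of those neighbours was within their spread. Atp6v1g1, a V1 subunit of the outer stalk that ties V1 to V0, followed at 273 ± 62.9 CPM per kb, below Atp6ap1 in 14 of 24 libraries. Atp6ap2, the accessory subunit also known as the prorenin receptor, was at 144 ± 34.7, and Atp6v1e1, the partner of the G subunit in the outer stalk, at 111 ± 28.0. Of that pair, Atp6ap2 was higher in 17 of 24 libraries. At the lower end were Atp6v1b2, a subunit of the catalytic head, at 49.6 ± 12.9 CPM per kb, and Atp6v1h, which regulates the coupling of V1 to V0, at 40.3 ± 14.7. Atp6v0d1, which links the ring to the shaft, was at 38.3 ± 12.4, and Atp6v1a, the ATP-splitting subunit, was lowest at 19.4 ± 8.23. Atp6v1b2 exceeded Atp6v1h in 15 of 24 libraries and Atp6v1h exceeded Atp6v0d1 in 11 of 24, so these neighbours were not separated. Atp6v0d1 was above Atp6v1a in 21 of 24.

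The order depends on the transcript length used, since only the genes were counted. Lengths were those of the longest GENCODE transcript tied to a RefSeq mRNA. For Atp6v0e this was 823 bases, and with its longest transcript, 2812 bases, the level would be 84.5 CPM per kb. The plot of levels per length shows the same order beside the other pump subunits.

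**Figure D1:**
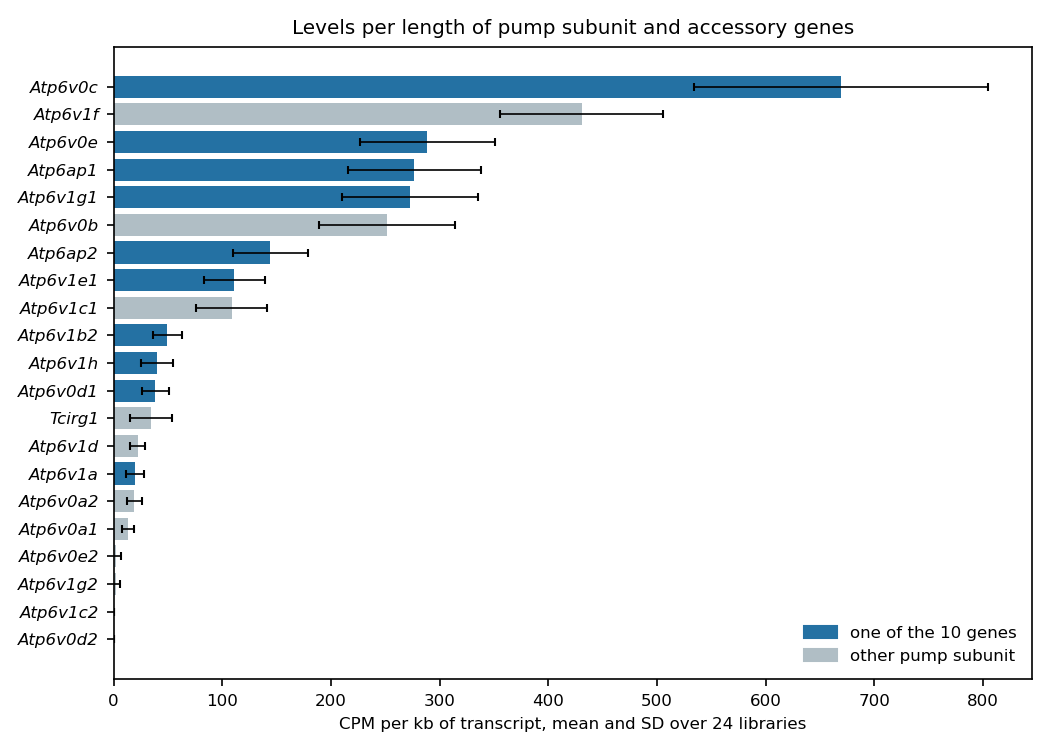
CPM per kb of transcript (horizontal axis, from 0) of the 10 genes in blue and of the other pump subunits with values in grey; bars are means and lines SDs over 24 libraries. Atp6v0c at 669 stands highest and Atp6v1a at 19.4 is the lowest of the 10.

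None of the 10 genes passed the test in any of the 4 comparisons. The test was the quasi-likelihood F test of edgeR, adjusted by Benjamini-Hochberg over all 10219 genes at a threshold of 0.05, and 0 of 10 members were called in each comparison and in the test over the 4 groups. At an unadjusted p under 0.05, 1 of the 40 values passed, that of Atp6v0e in WD-Exos against BCAS. DESeq2 called 0 of 40, with 2 of 40 at an unadjusted p under 0.05, and voom with library weights called 0 of 40, with 3 of 40. Over all genes, edgeR called 0% in BCAS against Sham, 0.0196% in ND-Exos against BCAS, 0% in WD-Exos against BCAS, 0.0196% in WD-Exos against ND-Exos and 0.0294% over the 4 groups. In the same 4 comparisons DESeq2 called 1.90%, 1.39%, 1.07% and 1.22% of all genes and voom 0.0979%, 0.00979%, 0.00979% and 0.0391%. At an unadjusted p under 0.05, DESeq2 had 7.89%, 6.40%, 5.02% and 7.24% and voom 7.84%, 5.73%, 6.50% and 9.65%. With edgeR, shares of all tested genes at an unadjusted p under 0.05 were 6.04%, 4.47%, 3.71% and 5.33% in the 4 comparisons and 6.33% over the groups, and among genes with a mean of at least 100 CPM, as 7 of the 10 have, 16.7%, 7.45%, 5.76% and 15.0% in the 4 comparisons. In 0 of 40 values were the members' groups free of overlap, where 0.372%, 0.186%, 0.186% and 0.519% of all tested genes had groups that did not overlap.

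A missed threshold does not show equal levels, so the intervals of the differences are the measurement here. The 95% interval held no change in 39 of the 40 values and lay within a 0.5- to 2-fold range in 35. The 5 that reached outside were Atp6v1a in BCAS against Sham, in ND-Exos against BCAS and in WD-Exos against ND-Exos, and Atp6v0d1 in BCAS against Sham and in ND-Exos against BCAS. SEs of the log2 fold changes were 0.16 to 0.42 over the members. In simulated data for BCAS against Sham, over 10219 genes, changes were given only to genes of at least 100 CPM, and to many of them at once. The same procedure recovered 9.5% of those changed 1.5-fold, 42.8% of those changed 2-fold and 94.9% of those changed 4-fold. Atp6v1a, Atp6v1h and Atp6v0d1, with means of 82.2, 82.5 and 62.4 CPM, lie below 100 CPM, so these shares do not cover them. The adjusted threshold is easier to reach when many genes change together. Where few genes change, the shares recovered would be lower than these.

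**Figure D2:**
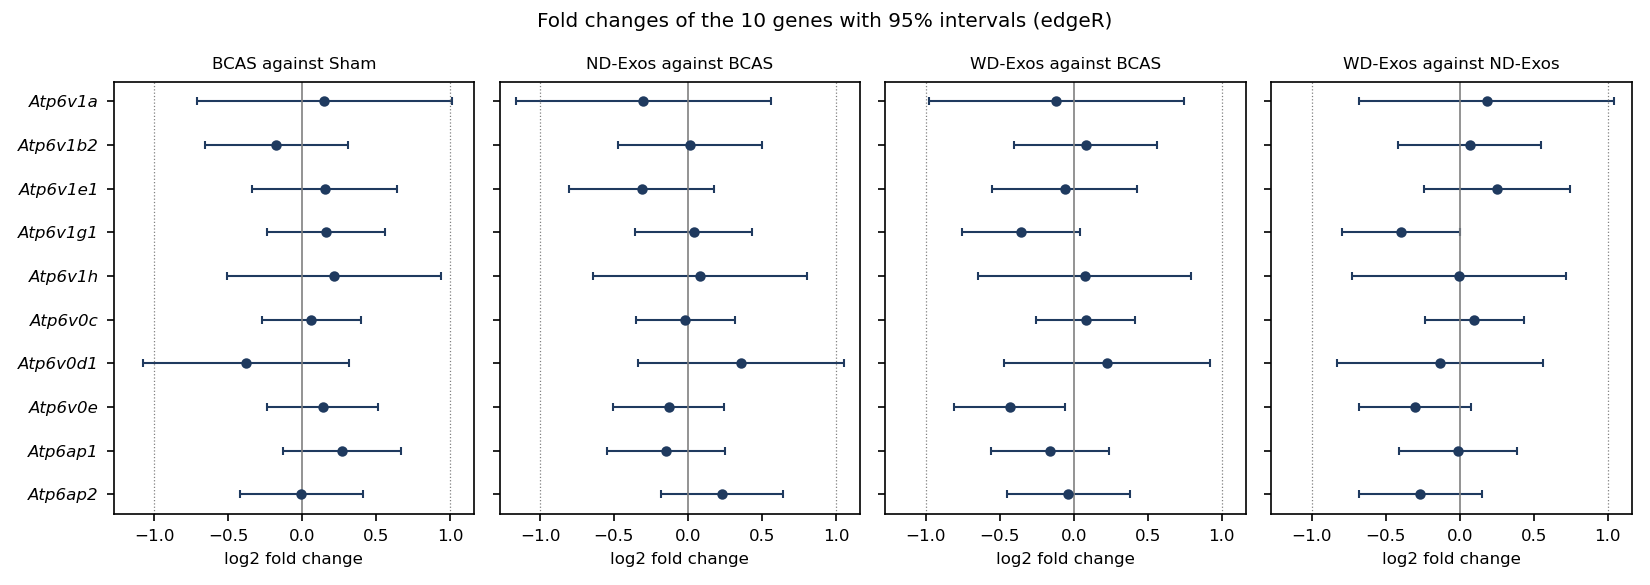
Log2 fold changes of the 10 genes (points) with 95% intervals from edgeR (lines), 1 panel per comparison; the solid line marks no change and dotted lines a 2-fold difference either way. In this fit, which does not pair the libraries, Atp6v0e in WD-Exos against BCAS is the value whose interval, 0.571- to 0.961-fold, excludes no change.

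Taking the V1 sector first, Atp6v1a had 33.6 CPM at the lowest, 93.6 at the median and 116 at the highest in Sham, and 22.1, 86.8 and 157 in BCAS. Its lowest, median and highest levels were 15.2, 71.2 and 141 CPM after ND-Exos and 38.3, 90.4 and 114 after WD-Exos. Each group thus spanned libraries from 38.3 CPM or less to 114 or more, and all 4 groups overlapped. Fitted log2 fold changes were 0.15 (SE 0.42) in BCAS against Sham, -0.30 (SE 0.42) in ND-Exos against BCAS, -0.12 (SE 0.42) in WD-Exos against BCAS and 0.18 (SE 0.42) in WD-Exos against ND-Exos. Within groups, the SD of its log2(CPM + 1) was 0.836, against a median of 0.663 over the 1309 genes at a like level (within a factor of 1.5), so the catalytic subunit varied more between libraries than 72.9% of them.

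Atp6v1b2, which pairs with the A subunit in the catalytic head, had lowest, median and highest levels of 95.03, 156 and 177 CPM in Sham and 90.4, 121 and 192 in BCAS. After ND-Exos the same levels were 92.7, 127 and 205 CPM, and after WD-Exos 105, 126 and 198. Of the BCAS libraries, 2 lay below the lowest Sham library and 2 above the highest, so the groups spread in both directions. The log2 fold change was -0.17 (SE 0.24) in BCAS against Sham and 0.01, 0.08 and 0.07 in the comparisons of ND-Exos with BCAS, WD-Exos with BCAS and WD-Exos with ND-Exos. Sham replicate 1, at 95.03 CPM, lay apart from the next Sham library at 146.9.

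Atp6v1e1 had lowest, median and highest levels of 104, 144 and 189 CPM in Sham and 62.0, 171 and 199 in BCAS. After ND-Exos they were 80.5, 129 and 172 CPM, and after WD-Exos 98.4, 159 and 193. BCAS replicate 5, at 62.0 CPM, lay apart from the next BCAS library at 154.9. The log2 fold change was 0.15 (SE 0.24) in BCAS against Sham, -0.31 (SE 0.24) in ND-Exos against BCAS, -0.06 in WD-Exos against BCAS and 0.25 (SE 0.24) in WD-Exos against ND-Exos. Without BCAS replicate 5 the value of ND-Exos against BCAS was -0.48, with an unadjusted p of 0.0296 and an adjusted p of 0.752 by edgeR.

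Atp6v1g1 was at 205 CPM at the lowest, 308 at the median and 367 at the highest in Sham, and at 291, 316 and 430 in BCAS. The corresponding levels were 204, 368 and 429 CPM after ND-Exos and 180, 240 and 374 after WD-Exos. Of the 6 WD-Exos libraries, 4 lay below the lowest BCAS library and 2 below the lowest ND-Exos library, with the rest inside those groups. The log2 fold change was -0.36 (SE 0.19) in WD-Exos against BCAS (unadjusted p 0.0751) and -0.40 (SE 0.19) in WD-Exos against ND-Exos, with an unadjusted p of 0.0502 and an adjusted p of 0.940 by edgeR. The latter was the smallest adjusted p among the 40 values. In BCAS against Sham it was 0.16 (SE 0.19), and in ND-Exos against BCAS 0.04 (SE 0.19).

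Atp6v1h showed its narrowest range in Sham, with 56.7 CPM at the lowest, 71.7 at the median and 88.5 at the highest, against 25.8, 93.4 and 132 in BCAS. It ranged from 48.5 through 95.05 to 114 CPM after ND-Exos and from 28.4 through 93.9 to 143 after WD-Exos. In BCAS 2 libraries lay below all Sham libraries and 3 above all of them. The group means were 71.5 ± 10.4, 83.2 ± 41.6, 88.0 ± 22.8 and 87.5 ± 40.1 CPM (SD, n = 6) in the order Sham, BCAS, ND-Exos, WD-Exos. Fitted log2 fold changes were 0.22 (SE 0.35), 0.08, 0.07 and -0.0082 in the 4 comparisons in the order of the plot of fold changes. Atp6v1h overlaps Rgs20 on the opposite strand by 127 bases, and Rgs20 was at 0 CPM.

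In the V0 sector, Atp6v0c had lowest, median and highest levels of 624, 744 and 953 CPM in Sham and 603, 672 and 1374 in BCAS. They were 661, 760 and 934 CPM after ND-Exos and 794, 818 and 926 after WD-Exos. The 6 WD-Exos libraries were the closest together, while in BCAS a single library, replicate 2, stood at 1374 CPM and the next at 806.6. That library also had the highest immediate early and heat shock sum of its group, 17474 CPM. WD-Exos replicate 2, with a higher sum of 21974 CPM, had 796 CPM of Atp6v0c, the second lowest of its group, and the part of that signal in the result was not tested. The log2 fold change was 0.06 (SE 0.16) in BCAS against Sham, -0.02 (SE 0.16) in ND-Exos against BCAS, 0.08 (SE 0.16) in WD-Exos against BCAS and 0.10 (SE 0.16) in WD-Exos against ND-Exos. Without BCAS replicate 2 the first was -0.16, the second 0.21 and the third 0.32, the last with an unadjusted p of 0.0148 and an adjusted p of 0.678 by edgeR.

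Atp6v0d1 had levels of 39.7 CPM at the lowest, 70.4 at the median and 82.2 at the highest in Sham, and of 16.9, 51.2 and 85.9 in BCAS. After ND-Exos it had 33.2, 65.8 and 95.7 CPM, and after WD-Exos 35.3, 62.5 and 81.2. Its mean was the lowest of the 10 genes in every group, at 52.6 ± 24.7 CPM (SD, n = 6) in BCAS and 68.3 ± 15.8 in Sham. In BCAS 2 of 6 libraries lay below the lowest Sham library and 1 above the highest. Its log2 fold change came to -0.38 (SE 0.34) in BCAS against Sham, 0.36 (SE 0.34) in ND-Exos against BCAS, 0.22 (SE 0.34) in WD-Exos against BCAS and -0.13 (SE 0.34) in WD-Exos against ND-Exos. Without BCAS replicate 3, which stood at 16.9 CPM, the first was -0.19, the second 0.17 and the third 0.050, and without BCAS replicate 1 they were -0.57, 0.55 and 0.42. Its SD within groups, 0.570 on the log2(CPM + 1) scale, was below the median of 0.767 over genes at a like level. The paralog Atp6v0d2, which osteoclasts and some macrophages use in its place, had 0 counts in all 24 libraries, and 3 counts in their summed total would be 0.00469 CPM.

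Atp6v0e had lowest, median and highest levels of 216, 242 and 264 CPM in Sham and 214, 265 and 309 in BCAS. After ND-Exos the same levels were 163, 230 and 332 CPM, and after WD-Exos 144, 193 and 272. The 6 WD-Exos libraries stood at 224, 144, 222, 160, 272 and 164 CPM, and 3 of them lay below all BCAS libraries. The fold in WD-Exos against BCAS was 0.741, with a 95% interval of 0.571 to 0.961 (log2 fold change -0.43, SE 0.18, unadjusted p 0.0256). Its adjusted p by edgeR was 1.0, and over the alternatives the adjusted p was at least 0.36. By edgeR with the replicate number as a block, the unadjusted p in WD-Exos against BCAS was 0.0453 in the fit of all 24 libraries. In the block fit of these 2 groups alone, 0 of 10 members had an unadjusted p under 0.05. With detected genes as a covariate, 0 of 40 values did. The shares of all genes at that p are not given for these 2 settings, so these counts are not read as a result about the members. Against ND-Exos the log2 fold change of WD-Exos was -0.30 (SE 0.18). The log2 fold change was 0.14 (SE 0.18) in BCAS against Sham and -0.13 (SE 0.18) in ND-Exos against BCAS.

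Atp6v0e and Atp6v1g1 gave the lowest values in WD-Exos against BCAS, and both have short transcripts by the lengths used here. When the genes with a mean of at least 100 CPM were cut into 4 length classes, they fell in the shortest (345 to 1475 bases), together with Atp6v0c and Atp6v1e1. In that comparison 77.3% of the 352 genes of this class had a negative log2 fold change. The median of the class was -0.13, against -0.04, 0.04 and -0.04 in the longer classes. The other members of the class, Atp6v0c and Atp6v1e1, were at 0.08 and -0.06. By its longest transcript, 2812 bases, Atp6v0e would instead fall in the class of 2312 to 3498 bases, with the median of 0.04. WD-Exos replicate 2, with the highest immediate early and heat shock sum of all libraries, was also the lowest of its group for Atp6v0e and Atp6v1g1. BCAS replicate 2, with the next highest sum, was the second highest of its group for both, at 297 CPM of Atp6v0e and 347 of Atp6v1g1. Without WD-Exos replicate 2 the WD-Exos against BCAS value of Atp6v0e was -0.36. The part of transcript length and of that signal in these results was not tested.

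Among the accessory subunits, Atp6ap1 had lowest, median and highest levels of 451, 555 and 693 CPM in Sham and 303, 711 and 849 in BCAS. Its range was 342, 670 and 725 CPM after ND-Exos and 508, 568 and 724 after WD-Exos. In BCAS 3 of 6 libraries lay above the highest Sham library and 1, replicate 2, below the lowest. Compared between groups, the log2 fold change was 0.27 (SE 0.19, unadjusted p 0.175) in BCAS against Sham, -0.15 (SE 0.19) in ND-Exos against BCAS, -0.16 (SE 0.19) in WD-Exos against BCAS and -0.01 (SE 0.19) in WD-Exos against ND-Exos. Without BCAS replicate 2 the first was 0.43, with an unadjusted p of 0.0127 and an adjusted p of 0.368 by edgeR, and with detected genes per library as a covariate it was -0.02.

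Atp6ap2 spread most after ND-Exos, from 205 CPM at the lowest through 411 at the median to 520 at the highest. In Sham its levels were 268, 325 and 382 CPM, in BCAS 277, 313 and 402, and after WD-Exos 201, 320 and 402. Of the 6 ND-Exos libraries, 3 lay above the highest BCAS library and 2 below the lowest. The log2 fold change was 0.23 (SE 0.20) in ND-Exos against BCAS and -0.27 (SE 0.20) in WD-Exos against ND-Exos. In BCAS against Sham it was -0.0043 (SE 0.20), and in WD-Exos against BCAS -0.04 (SE 0.20).

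**Figure D3:**
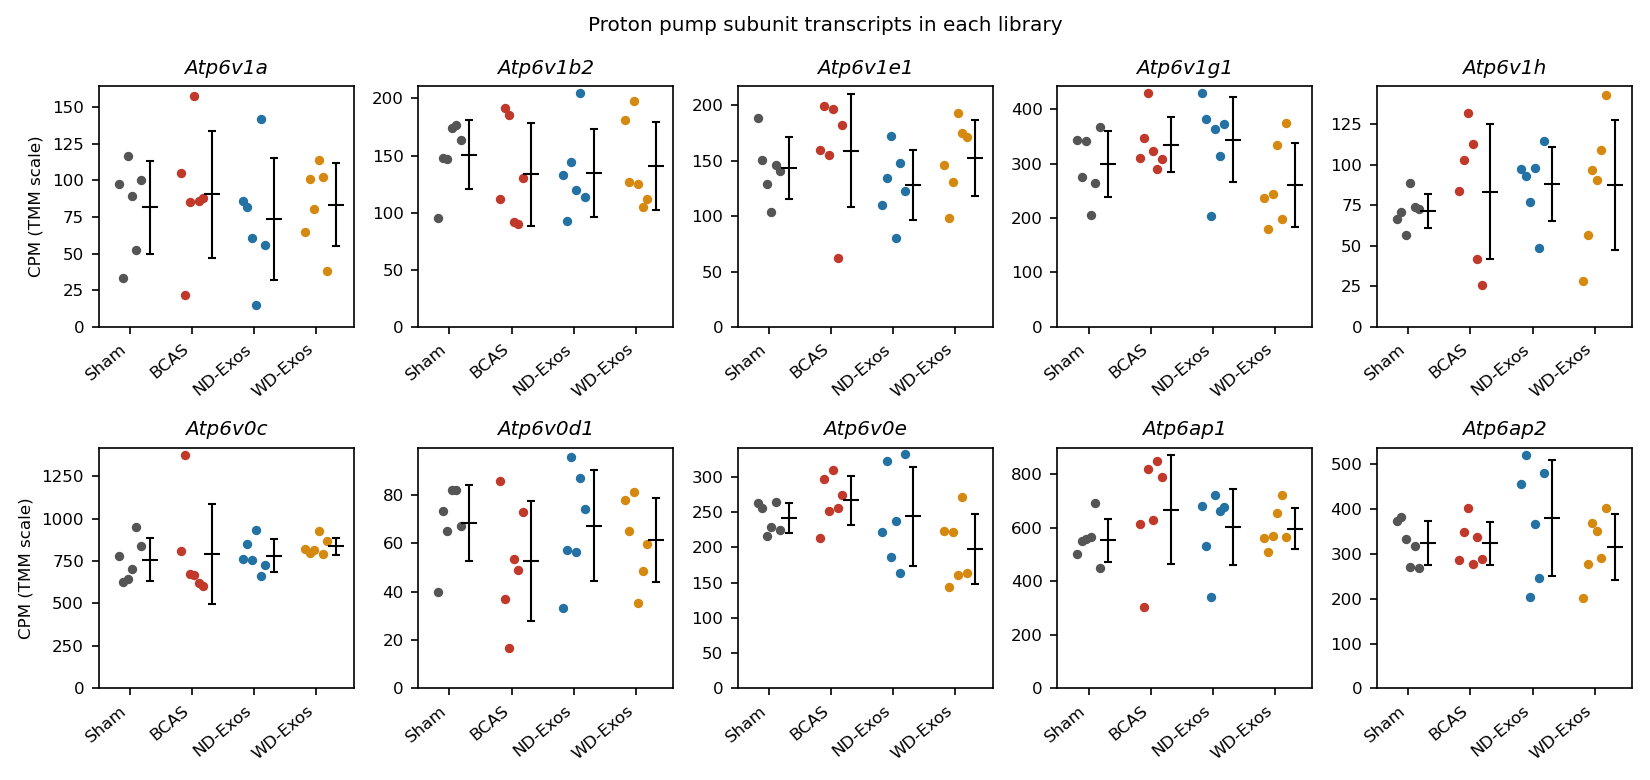
CPM on the TMM scale (vertical axes, from 0) of each of the 10 genes in the 24 libraries, 6 points per group, with the group mean and SD beside them. The groups overlap in every panel, and the BCAS library at 1374 CPM of Atp6v0c lies apart from the others of its group.

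As a set, the members had no common direction. In BCAS against Sham 7 were higher and 3 lower, the median log2 fold change was 0.14, and 49.9% of all tested genes and 51.9% of genes of at least 100 CPM were higher. In ND-Exos against BCAS 5 were higher and 5 lower, beside 50.4% of all genes and 41.3% of genes of at least 100 CPM higher. The split was 4 higher and 6 lower in WD-Exos against BCAS, beside 48.9% of all genes and 41.1% of genes of at least 100 CPM higher. It was again 4 and 6 in WD-Exos against ND-Exos, beside 49.2% and 49.5%. Medians in these 3 comparisons were -0.0020, -0.05 and -0.01. The medians over all tested genes, in the order of the 4 comparisons, were -0.0032, 0.0051, -0.02 and -0.01. BCAS libraries serve in 3 of the comparisons, so these values are not independent of each other. The summed CPM of the 10 genes was 2692 ± 183 in Sham, 2903 ± 226 in BCAS, 2844 ± 329 after ND-Exos and 2734 ± 239 after WD-Exos (SD, n = 6). Its ranges, 2514 to 3023, 2682 to 3222, 2242 to 3072 and 2352 to 2984 CPM, overlapped throughout.

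Between libraries, pairs of subunits correlated about as little as pairs of genes of at least 100 CPM in general. Over the 45 pairs, the median Pearson correlation of log2(CPM + 1) over the 24 libraries was -0.0054, and 21 pairs (46.7%) were above 0. All pairs of genes of at least 100 CPM had a median of 0.02, with 53.5% above 0. These are descriptions across libraries that share their groups and the TMM scaling. Atp6v1g1 with Atp6ap2 had the highest correlation, 0.643, followed by Atp6v1h with Atp6ap2 at 0.515. The lowest were Atp6v1g1 with Atp6v0d1 at -0.522, Atp6v1a with Atp6v0c at -0.521 and Atp6v0c with Atp6ap1 at -0.516. Atp6v0c and its opposite partners Atp6v1a and Atp6ap1 share BCAS replicate 2, which was the highest of its group for Atp6v0c and the lowest for both others.

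**Figure D4:**
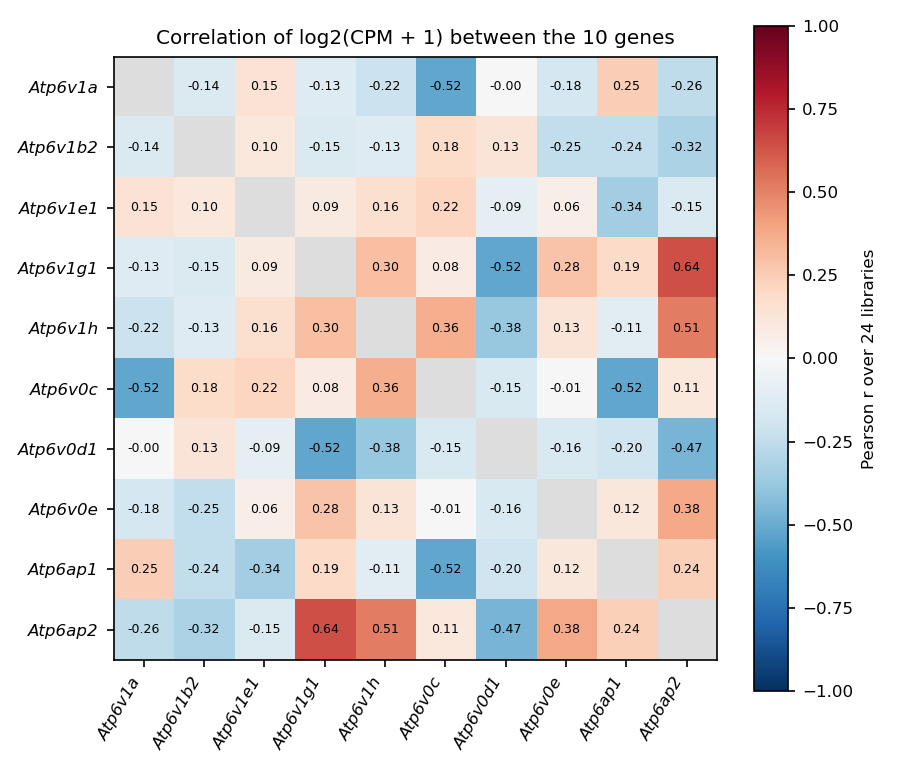
Pearson correlation of log2(CPM + 1) between each pair of the 10 genes over 24 libraries, coloured from -1 (blue) to 1 (red) with the value in each cell. Positive and negative cells are about equally common, from -0.52 to 0.64.

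Outside the set, the genes whose levels followed the mean of the 10 standardised members most closely were Psmc3, a proteasome ATPase, at a Pearson correlation of 0.762, Rnase4 at 0.727, Dazap2 at 0.711, Snap23, a membrane fusion protein, at 0.701, and the selenium transport protein Selenop at 0.691. They were picked as the highest of 1416 genes over 24 libraries. The members themselves followed each other less. Their correlations with the mean of the other members ran from -0.559 (Atp6v0d1) to 0.333 (Atp6v1g1). The mean is therefore not a pattern that the subunits share, and these genes are not shown to follow the pump.

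Shares among the forms of a subunit are given, among the members, for G and e, where another form had a count. Atp6v1g1 made up 99.3 ± 1.32% (SD, n = 24) of the G transcripts per length and Atp6v0e 99.2 ± 1.55% of the e transcripts. Atp6v1g2, a form of G found in neurons, had a count in 9 of 24 libraries, and Atp6v0e2, the other form of e, in 11 of 24. Atp6v1c1 made up 99.98% of the C transcripts. Atp6v1b1, Atp6v1e2, Atp6v1g3 and Atp6v0a4 had no values and could not be analysed.

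Subunit a, the V0 protein that directs the pump to a membrane, was shared among 3 genes, none of them among the 10. Tcirg1, which encodes the a3 form found on lysosomes and in osteoclasts, made up 48.4 ± 14.3% of its transcripts per length (SD, n = 24), Atp6v0a2 30.4 ± 12.5% and Atp6v0a1 21.2 ± 9.40%. By group, the share of Tcirg1 was 43.5 ± 15.5% in Sham, 50.9 ± 11.3% in BCAS, 45.0 ± 11.3% after ND-Exos and 54.1 ± 18.9% after WD-Exos (SD, n = 6), within the spread between libraries.

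**Figure D5:**
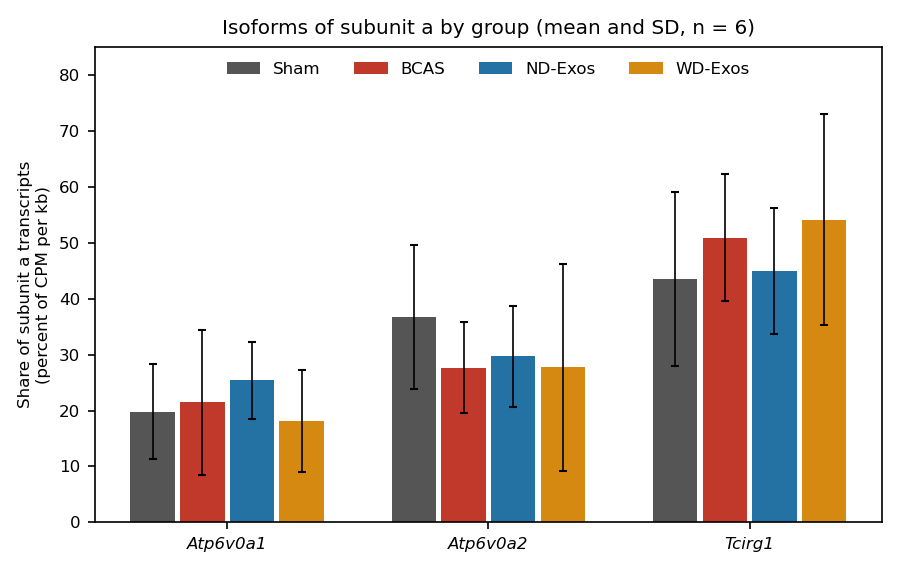
Share of subunit a transcripts, in percent of their summed CPM per kb, for Atp6v0a1, Atp6v0a2 and Tcirg1 in the 4 groups; bars are means and lines SDs over 6 libraries. Tcirg1 has the tallest bars, from 43.5% to 54.1%, and the SDs of the groups overlap.

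The other pump subunits, a list of 15 of which 9 were tested, had 0 called by edgeR in any comparison, with 1, 2, 1 and 1 at an unadjusted p under 0.05. Of the 9, 5 were higher in BCAS than in Sham (median log2 fold change 0.01), 6 in ND-Exos than in BCAS (0.10), 4 in WD-Exos than in BCAS (-0.02) and 4 in WD-Exos than in ND-Exos (-0.13). Atp6v1d, the V1 part of the rotating shaft, was at 87.5 ± 11.2 CPM in Sham, 68.0 ± 22.9 in BCAS, 102 ± 27.9 after ND-Exos and 67.1 ± 19.98 after WD-Exos. Its log2 fold change was -0.36 (SE 0.26) in BCAS against Sham, 0.59 (SE 0.26, adjusted p 0.939) in ND-Exos against BCAS and -0.60 (SE 0.26, adjusted p 0.780) in WD-Exos against ND-Exos. Atp6v0e2 was at 10.3 ± 12.3 CPM in Sham, with a count in 5 of 6 libraries, and had 0 counts in BCAS, where 3 counts over the group would be 0.0189 CPM. It was at 3.78 ± 6.49 CPM after ND-Exos and 2.64 ± 5.06 after WD-Exos, and its adjusted p was 0.376, 0.577 and 0.816 in BCAS against Sham, ND-Exos against BCAS and WD-Exos against BCAS. Its highest Sham and WD-Exos libraries, replicates 4 and 6, were also those with the highest oligodendrocyte marker sums. After ND-Exos its highest library was replicate 1, at 15.9 CPM, whereas the oligodendrocyte sum was highest in replicate 3. The part of other cells in its values was not tested. In WD-Exos against BCAS the next smallest p was that of Atp6v1c1, a C subunit, at 258 ± 49.9 against 217 ± 92.2 CPM, and in WD-Exos against ND-Exos that of Tcirg1, at 136 ± 83.5 against 80.9 ± 32.1 CPM.

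Factors that build the pump or rejoin its sectors, 13 listed and 12 tested, had 0 called by edgeR and 1, 2, 0 and 1 at an unadjusted p under 0.05 in the 4 comparisons. They were 8 higher and 4 lower in BCAS against Sham (median 0.10), 7 and 5 in ND-Exos against BCAS (0.09), 6 and 6 in WD-Exos against BCAS (-0.07), and 4 and 8 in WD-Exos against ND-Exos (-0.16). Rogdi, a subunit of the complex that rejoins V1 to V0, was at 252 ± 58.1 CPM in Sham, 385 ± 81.9 in BCAS, 288 ± 81.6 after ND-Exos and 325 ± 50.7 after WD-Exos. Its log2 fold change was 0.61 (SE 0.20, adjusted p 0.376) in BCAS against Sham and -0.42 (SE 0.20, adjusted p 1.0) in ND-Exos against BCAS. Tbc1d24 was at 7.71 ± 8.54 CPM in BCAS and 2.09 ± 3.86 in Sham, and Vma21, which assembles V0 in the endoplasmic reticulum, at 91.2 ± 35.3 in BCAS, 98.8 ± 36.6 after ND-Exos and 64.9 ± 39.7 after WD-Exos. Ncoa7, which binds V1, was at 4.83 ± 6.30 CPM in BCAS, 0.0615 ± 0.104 after ND-Exos and 5.87 ± 6.79 after WD-Exos.

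Lysosomal ion channels and exchangers, 12 listed and 10 tested, had 0 called and 0 at an unadjusted p under 0.05 in any comparison by edgeR. The counts of higher and lower genes were 4 and 6 in BCAS against Sham (median -0.12), and 6 and 4 in ND-Exos against BCAS (0.20), in WD-Exos against BCAS (0.21) and in WD-Exos against ND-Exos (0.05). Clcn3, a chloride-proton exchanger, was at 25.8 ± 13.6 CPM in Sham, 44.0 ± 26.8 in BCAS, 25.6 ± 14.7 after ND-Exos and 25.8 ± 14.6 after WD-Exos. Clcn7, the exchanger of lysosomes, was at 41.4 ± 30.9 CPM in Sham and 22.3 ± 19.99 in BCAS. The proton leak channel Tmem175 was at 42.1 ± 28.9 CPM in BCAS, 63.3 ± 20.8 after ND-Exos and 40.6 ± 27.1 after WD-Exos. Clcn5 was at 6.88 ± 10.3 CPM in BCAS and 17.9 ± 21.4 after WD-Exos, and the calcium channel Mcoln1 at 18.99 ± 14.3 after WD-Exos and 6.60 ± 8.36 after ND-Exos. Spreads of this size left these genes without a separation of the groups.

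The Ragulator and Rag GTPases, which sit on the lysosome beside the pump and pass nutrient signals to mTORC1, had 9 of 10 tested, 0 called by edgeR and 0, 1, 1 and 1 at an unadjusted p under 0.05. They were 6 higher and 3 lower in BCAS against Sham (median 0.02), 3 and 6 in ND-Exos against BCAS (-0.10), 2 and 7 in WD-Exos against BCAS (-0.35), and 3 and 6 in WD-Exos against ND-Exos (-0.11). Lamtor1, the membrane anchor of Ragulator, was at 244 ± 51.7 CPM in BCAS and 181 ± 34.7 after ND-Exos (log2 fold change -0.43, SE 0.20, adjusted p 1.0). Lamtor4 was at 146 ± 34.4 CPM in BCAS, 141 ± 36.7 after ND-Exos and 111 ± 23.1 after WD-Exos, and Lamtor2 at 99.9 ± 24.6 in BCAS and 83.0 ± 22.8 after ND-Exos. Rragc was at 19.1 ± 16.6 CPM in Sham and 45.5 ± 33.1 in BCAS, and Lamtor3 at 30.1 ± 8.61 and 47.2 ± 30.8. Rragd had a count in 2 of 6 BCAS libraries, 4 after ND-Exos and 1 after WD-Exos.

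The factors that bind the CLEAR element had 3 of 4 tested, 0 called and 0 at an unadjusted p under 0.05 by edgeR. Tfe3 was at 74.7 ± 45.7 CPM in Sham, 106 ± 84.8 in BCAS, 127 ± 42.5 after ND-Exos and 142 ± 54.8 after WD-Exos. Tfeb was at 13.5 ± 6.89, 6.11 ± 13.1, 3.19 ± 4.17 and 14.0 ± 11.6 CPM in the same order, with a count in 3 of 6 BCAS libraries. Mitf was at 11.5 ± 8.96 CPM after ND-Exos and 21.3 ± 11.3 after WD-Exos. The numbers higher and lower were 2 and 1 in BCAS against Sham (median 0.22), 1 and 2 in ND-Exos against BCAS (-0.45), and 3 and 0 in WD-Exos against BCAS (0.43) and against ND-Exos (0.89).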

How the data were processed

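The authors deposited 1 table of estimated counts per Entrez gene identifier for the 24 libraries; 76.8% of genes were whole numbers in every library, including all 10 members, and the values were rounded to whole counts. Microglia were sorted and RNA amplified with Smart-seq2, per the labels' protocols; build, annotation, aligner and counting software were not given in the sources used here. Of 22064 identifiers, 6186 had no values, and 22002 found a symbol in RefSeq's gene table (GRCm38.p6), which was used for names; 1 text column without values was not used.

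Counts were scaled by TMM (factors 0.936 to 1.18), filtered with filterByExpr (minimum count 10) and tested in R 4.3.3 with edgeR 4.0.16 by robust quasi-likelihood F tests on all 24 libraries in 1 fit, with 4 contrasts, a test over the 4 groups and Benjamini-Hochberg adjustment. Intervals are 95%. All 10 members are named; of each pathway list, the 2 tested genes with the smallest p per comparison. The members and lists were chosen with earlier results of these data known. The procedure was tested on simulated data. Libraries had 8518 to 10802 genes with a count, and library pairs correlated at 0.648 to 0.79 across genes, so no library was a duplicate. Replicate numbers are shared between groups in the labels, which do not say what a number marks. Deviations from the group means correlated at 0.118 to 0.288 in all 6 same-numbered pairs of BCAS and WD-Exos libraries. They correlated above 0.1 in at most 1 of 6 pairs of any other 2 groups. The numbers were therefore treated as possibly pairing BCAS and WD-Exos. Pairs of unlike numbers are not given beside these values, so a pairing is not established. Reads were amplified and carry no molecular identifiers, so they are not independent molecules, and floors cover counting error only.

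Transcript lengths came from GENCODE release 21 for mouse, and transcripts were aligned with blastn 2.17.0. Near-identical pseudogenes (identity of at least 90% over at least 100 bases) exist for Atp6v0c (99.8% and 97.2% over 465 bases), Atp6v1g1 (99.4% and 90.5% over 357), Atp6v1a (90.2% over 296) and Atp6ap2 (98.4% over 438; that one at 0.00484 CPM), so their counts are uncertain where the counting could split reads. Alternatives were DESeq2-type size factors, no filter and a stricter filter (50 counts in 6 libraries), the replicate number as a block (also in a fit of BCAS and WD-Exos alone), detected genes as a covariate, only the 2 groups compared, DESeq2 1.42.0, voom (limma 3.58.1), and leaving out each library. Figures were drawn with matplotlib 3.10.9.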

Additional observations from a re-analysis of the deposited data

Results flagged for a closer look

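In 3 of the 40 sets of 6 libraries (10 genes in 4 groups), a single library lay apart from the rest of its group, with a gap to the nearest library, as a share of the range, above Dixon's critical value for 6 values. Chance flags about 1 in 20 such sets. Atp6v1b2 was at 95.03 CPM in Sham replicate 1, where the next library was at 146.9 and the highest at 177, a gap of 0.632 of the range. Atp6v1e1 was at 62.0 CPM in BCAS replicate 5, with the next at 154.9 and the highest at 199, a gap of 0.678. Atp6v0c was at 1374 CPM in BCAS replicate 2, with the next at 806.6 and the lowest at 603, a gap of 0.736.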

How the results depend on the processing

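No member passed the threshold under any alternative, where the smallest adjusted p was 0.36. Of the 330 member values under alternatives other than leaving out a library, 311 kept their direction and 19 reversed, from values of at most 0.27 (log2); the cause was not tested. With size factors of the DESeq2 type, and by DESeq2, Atp6ap2 in BCAS against Sham was 0.010, and in WD-Exos against ND-Exos Atp6v1h was 0.0026 and Atp6ap1 0.0023. With detected genes as a covariate, Atp6ap1 was -0.017, 0.017, 0.11 and 0.095 in the 4 comparisons in order, Atp6v1b2 was -0.044 in ND-Exos against BCAS and -0.0072 in WD-Exos against BCAS, Atp6ap2 was 0.079 in WD-Exos against BCAS, and Atp6v1h was 0.016 in WD-Exos against ND-Exos. By voom, Atp6v0c was 0.035 in ND-Exos against BCAS and Atp6v1h -0.042 in WD-Exos against BCAS. With only the libraries of the 2 groups, Atp6v1h was 0.00016 in WD-Exos against ND-Exos.

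Whether the replicate numbers pair BCAS and WD-Exos libraries is not established. Of the same-numbered pairs of any other 2 groups, 0 or 1 of 6 correlated above 0.1. Counted over all 4 groups, BCAS and WD-Exos included, 6 of 24 libraries were closest to a library of their own number. With the number as a replicate block, 0, 2, 0, 2 and 2 genes were called in the 4 comparisons and over the groups, 0 members were called, and Atp6v0c in ND-Exos against BCAS was 0.0076. The block in a fit of the BCAS and WD-Exos libraries alone was an alternative chosen after seeing the data. It called 0 genes (223 at an unadjusted p under 0.05) and 0 members. In that fit 0 of 10 members had an unadjusted p under 0.05, Atp6v1e1 was 0.0027 and Atp6v0e -0.44. The block changed no call of a member.

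Over all genes, the count of calls was 0, 2, 0, 2 and 3 in that order. It was 193, 141, 109, 124 and 163 by DESeq2 and 10, 1, 1, 4 and 58 by voom. Without a filter 30 genes were called over the groups. With the covariate 1 was called in ND-Exos against BCAS and 13 over the groups, and with only the 2 groups 1 in WD-Exos against ND-Exos. Leaving out each library gave 0 to 32 in BCAS against Sham, 1 to 3 in ND-Exos against BCAS, 2 to 5 in WD-Exos against ND-Exos and 2 to 42 over the groups; the highest were without BCAS replicate 2 (32 and 42) and ND-Exos replicate 5 (5), and over the groups 20 were called without ND-Exos replicate 3.

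Leaving out each library reversed 53 of 480 member values. In BCAS against Sham the ranges were -0.082 to 0.36 for Atp6v1a, -0.16 to 0.13 for Atp6v0c and -0.076 to 0.050 for Atp6ap2. In ND-Exos against BCAS they were -0.15 to 0.14 for Atp6v1b2, -0.035 to 0.17 for Atp6v1g1, -0.11 to 0.26 for Atp6v1h and -0.084 to 0.21 for Atp6v0c. In WD-Exos against BCAS they were -0.31 to 0.11 for Atp6v1a, -0.028 to 0.22 for Atp6v1b2, -0.22 to 0.036 for Atp6v1e1, -0.11 to 0.26 for Atp6v1h and -0.11 to 0.063 for Atp6ap2. In WD-Exos against ND-Exos they were -0.017 to 0.48 for Atp6v1a, -0.044 to 0.23 for Atp6v1b2, -0.19 to 0.17 for Atp6v1h, -0.27 to 0.0026 for Atp6v0d1 and -0.12 to 0.058 for Atp6ap1. The fewest counts of a member in a library were 390 (Atp6v0d1, BCAS replicate 3), so each member was detected in each library. Amplified reads are not independent molecules, and the part of depth in the members' spread was not tested.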
